A study of Mus musculus with 2 samples.

Results

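The cells described here are 273 mouse embryoid body (EB) cells that held transcripts of both Kdr and Etv2 and little RNA of 4 later blood and vessel transcription factors. They were chosen by their own measured values. A cell entered with at least 2 UMIs of Kdr (a UMI, or unique molecular identifier, stands for 1 transcript caught in the droplet), at least 2 UMIs of Etv2, and a summed level of Lmo2, Tal1, Fli1 and Gata2 below 400 CPM (UMIs per 1000000 UMIs of that cell). Of the 1878 EB cells 14.5% met this rule (95% exact Clopper-Pearson interval 13.0 to 16.2), and 1605 did not.

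The study made 1 droplet library of EB cells and 1 of yolk sac (YS) cells, 2653 cells in all, both from C57BL/6 mice. The EBs were aggregates grown from embryonic stem cells in serum for 4 days, in a differentiation that the labels call favourable to hemangiogenic mesoderm, and no allele or added factor is named for them. They were dissociated, frozen, thawed and sorted for live cells. The YS library pooled sacs of E9.5 and E10.5 embryos with most Ter119-positive red cells removed, and 1 of its 775 cells met the same rule.

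Kdr encodes the VEGF receptor through which mesoderm cells are directed to blood and vessel fates, and it is also carried by progenitors of the heart and of smooth muscle. Etv2 is an ETS transcription factor that is switched on briefly in Kdr-positive mesoderm and is needed for both blood and endothelium. Lmo2, Tal1, Fli1 and Gata2 lie downstream of it, and a cell with Kdr and Etv2 but little of these 4 is usually placed at an early step of that path.

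With 1 library there is no replicate. No test between classes was possible and no p-value is given. Intervals are 95% intervals for counting error alone (exact Poisson for levels, conditional binomial for ratios), and they leave out the variation between cells and cultures. The EB library held 73915225 UMIs, of which 50691307 were in cells, with a median of 25547 per cell. The Kdr+ Etv2+ cells were deeper, with a median of 31336 UMIs (6467 to 99304) against 24716 in the remaining cells. The rule asks for a fixed number of UMIs, and the share that met it was 6.38% among the 470 shallowest EB cells, 9.59% and 16.8% in the next 2 groups of 469, and 25.3% among the 470 deepest. Barcodes over 2 times the EB median UMI total made up 13.2% of the Kdr+ Etv2+ cells and 2.74% of the remaining cells, and no doublet caller was applied. How many of these barcodes hold 2 cells was not tested. When all of them were left out, 237 cells still met the rule. The share of mitochondrial UMIs had a median of 2.77% in the Kdr+ Etv2+ cells and 2.86% in the rest, and thinned to 6000 UMIs a cell their median number of genes was 1987 and 1985.

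The rule fixed the levels of 6 genes, which are given as a description. Kdr (chr5:75932827-75978458, minus strand, mm10) ran from 2 to 25 UMIs a cell with a median of 4. Etv2 (chr7:30633616-30635852, minus strand) ran from 2 to 105 UMIs with a median of 5, or from 30.7 to 2238 CPM. The 4-factor sum had a median of 52.3 CPM and was 0 in 97 cells. Etv2 was thus spread far more widely than the limit required, while the 4 downstream factors were absent or low. Over all 273 cells summed, Kdr stood at 164 CPM, Etv2 at 304, Lmo2 at 56.9, Tal1 at 16.8, Gata2 at 13.7 and Fli1 at 1.5.

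The class was cut from UMI counts and summed levels, so it is a range of values, and cells lay close to each limit. Exactly 2 Kdr UMIs were counted in 54 of the 273 cells and exactly 2 Etv2 UMIs in 57, while 58 cells missed the rule by holding 1 Kdr UMI and 97 by holding 1 Etv2 UMI. At the other limit, 22 cells had a 4-factor sum of 300 to 400 CPM and 15 otherwise matching cells had 400 to 500. The former averaged 251 CPM of Mesp1 and 93.1 CPM of Egfl7, and the latter 58.6 and 113. All told 80 cells were positive for Kdr and Etv2 but at or over the 4-factor limit. Free RNA at the level of a mean empty droplet (0.987% of a median cell's UMIs) would give at least 1 UMI of Etv2 to 2.95% of cells and of Kdr to 1.39%. Of the Mesp1+ cells with at most 1 UMI of Kdr and of Etv2 (median 25046 UMIs) 25.4% showed at least 1 Etv2 UMI, or 7.26% after thinning, against 70.7% of the Kdr+ Etv2+ cells after thinning.

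The label of early mesoderm was checked against marker lists. All 14 primitive streak and nascent mesoderm genes were measured, and Mesp1, Mixl1, Eomes and Tdgf1 were seen in 83.2%, 92.3%, 96.3% and 93.0% of the cells. The 14 together summed to 2464 CPM against 2571 in the remaining cells, with T, Fgf8 and Nodal over 2-fold lower here, so the summed level of the list was not higher in these cells. Blood cells were not detected by their defining markers: of 11, 7 had no UMI in any of the 273 cells, which allows a level of up to 0.32 CPM (3 UMIs) (globins Hbb-y, Hbb-bh1 and Hba-x, Pf4, Ptprc, Cd33 and Fcer1g), and the 11 together summed to 3.85 CPM against 4.4 in the remaining cells. Of 18 endothelial markers, Tek and Emcn had no UMI, Cdh5 had 2 and Cd34 had 3, and the list summed to 103 CPM against 123 in the remaining cells and 531 in the 4-factor-high cells. Egfl7 made up 67.4 CPM of it, and in the 4 other classes of low 4-factor sum it stood at 50.0 to 62.1 CPM. Streak and mesoderm genes were thus present, and the defining markers of differentiated endothelium and blood were at or near 0.

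For comparison the other 1605 cells were divided by the same kind of limits. There were 122 cells with a 4-factor sum at or over 400 CPM (4-factor-high), 212 with Kdr but at most 1 Etv2 UMI (Kdr+ Etv2-), 205 with Etv2 but at most 1 Kdr UMI (Etv2+ Kdr-), 551 with neither but at least 2 Mesp1 UMIs (Mesp1+), and 515 with none of the 3. A gene was compared when both classes together held at least 30 UMIs and the higher class at least 10 CPM. A ratio of at least 2-fold was counted as a difference. A gene under 10 CPM in 1 of the classes enters such a count only through the class where it is high, which favours a call, so counts are also given over the genes at 10 CPM or more in both classes. That second count was chosen after the data were seen.

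Against all remaining EB cells, the Kdr+ Etv2+ cells were higher in Mixl1 and in some genes of early cardiac and lateral mesoderm. Those mesoderm genes were shared with the Kdr+ Etv2- cells. Epiblast and epithelial genes were lower in the Kdr+ Etv2+ cells, as were 3 endoderm genes. Of those 3 only Trh was at 10 CPM or more in both classes. Of 6889 genes compared, 56 (0.813%) were at least 2-fold higher, Kdr and Etv2 among them by construction, and 137 (1.99%) at least 2-fold lower. Over the 6308 genes at the minimum level in both classes the numbers were 29 and 53. The median log2 ratio over all genes compared was -0.0021.

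The largest ratio of all named genes outside the rule belonged to Myl7 (chr11:5896637-5898782, minus strand), the atrial myosin light chain and one of the earliest contractile genes of the heart. It stood at 79.5 CPM (73.9 to 85.4) against 13.0 in the remaining cells, 6.13-fold higher (5.48 to 6.86). It was seen in 45.4% of the Kdr+ Etv2+ cells and in 14.5% of the rest, or 22.7% and 5.11% after thinning. Its level was uneven: the median cell had none, the highest had 2074 CPM, and 5 cells gave 24.6% of its UMIs. Myl7 was ordered over 5 of the 6 classes, 79.5 CPM here, 48.4 in Kdr+ Etv2- cells, 21.9 in 4-factor-high cells, 9.94 in Etv2+ Kdr- cells and 4.97 in Mesp1+ cells, and no 2 neighbouring values had overlapping intervals. The cells with none of the 3 held 5.51 CPM, and their interval overlapped that of the Mesp1+ cells. Free RNA at the empty droplets' level would give a Myl7 UMI to 1.12% of cells.

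Other genes of the cardiac and lateral mesoderm list followed. Of its 15 genes 9 were compared, 3 were at least 2-fold higher and none lower, with a median log2 ratio of 0.71, and all 9 reached the minimum level in both classes. Against the Kdr+ Etv2- cells none of 10 was 2-fold higher, Hand2 and Foxf1 were lower, and the median was -0.27. Hand2 was under 10 CPM in the Kdr+ Etv2+ cells and entered only through the Kdr+ Etv2- cells. Tbx3, a T-box factor of the lateral mesoderm and the heart, stood at 88.9 CPM against 33.4 (2.66-fold, 2.44 to 2.90). Gata4, a zinc finger factor of cardiac mesoderm, stood at 33.2 against 13.9 (2.38-fold, 2.07 to 2.74). Gata6, its relative, was 1.64-fold higher and Hand1, a basic helix-loop-helix factor of extraembryonic and lateral mesoderm, 1.17-fold. Nkx2-5 and Tbx5, which mark committed heart progenitors, did not reach the level limit, with 47 and 8 UMIs over all 273 cells.

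Lmo1, a LIM-only protein related to Lmo2, stood at 85.4 CPM against 28.0 (3.05-fold, 2.78 to 3.34). Fgf10, a fibroblast growth factor made by cardiac and limb mesoderm, was 2.81-fold higher and the PR domain gene Prdm6 2.55-fold. Vstm2b, Pdlim3, Igfbp4, Ctsc, Tgfb1i1 and Pmp22 were 2.06 to 2.47 times as high. Lmo1, Tbx3 and Prdm6 were as high in the Kdr+ Etv2- cells: Lmo1 was at 86.6 CPM there, Tbx3 at 88.6 and Prdm6 at 57.6.

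A few ligands and a co-receptor of 2 signaling routes were also higher. Of the VEGF list, 5 of 8 genes were compared and 2 were at least 2-fold higher: the co-receptor Nrp1 (52.5 CPM against 22.5, 2.34-fold) and the ligand Vegfc (12.1 against 4.69, 2.57-fold). Flt1, the decoy VEGF receptor, was lower, at 9.94 against 18.2, and entered only through the remaining cells. Kdr+ Etv2- cells (6.88 CPM) and Mesp1+ cells (7.07) held less Flt1 than the Kdr+ Etv2+ cells, and each other class held more. Of the BMP and TGF beta list, 14 of 16 genes were compared, and the ligands Bmp4 (105.0 CPM against 51.2, 2.05-fold) and Bmp2 (21.7 against 7.79, 2.78-fold) were the 2 past 2-fold. The receptors Bmpr1a and Bmpr2 had ratios of 1.11 and 1.45. Vegfc and Bmp2 were under 10 CPM in the remaining cells. Nrp1 and Bmp4 were higher still in the Kdr+ Etv2- cells, at 61.6 and 120.4 CPM. Targets of BMP signals differed less and in both directions: Msx2 was 1.58-fold and Id3 1.28-fold higher, and Id1 stood at 397 CPM against 494.

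Primitive streak genes differed in both directions. Of 14 compared, 1 was at least 2-fold higher, 3 were lower, and the list's median log2 ratio was 0.11. Mixl1 (chr1:180693043-180697034, minus strand), a homeobox factor of the streak and of nascent mesoderm, stood at 326 CPM against 152 (2.15-fold, 2.05 to 2.24), higher than in any of the other 5 classes. Eomes, the T-box factor upstream of Mesp1, was 1.63-fold higher at 210.5 CPM. T (Brachyury) was 2.43-fold lower (101 against 247), Fgf8 3.0-fold lower (158 against 472) and Nodal 3.16-fold lower (3.31 against 10.45). Nodal entered only through the remaining cells. Mesp1 (chr7:79792241-79793788, minus strand), the transient factor of mesoderm leaving the streak, was close to the average of the remaining cells at 475 CPM against 500. That average hides a wide range between classes, 920 CPM in Mesp1+ cells, 612 in Etv2+ Kdr- cells, 602 in Kdr+ Etv2- cells and 47.0 in 4-factor-high cells, and the Mesp1+ class was itself selected on this gene.

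**Figure D1:**
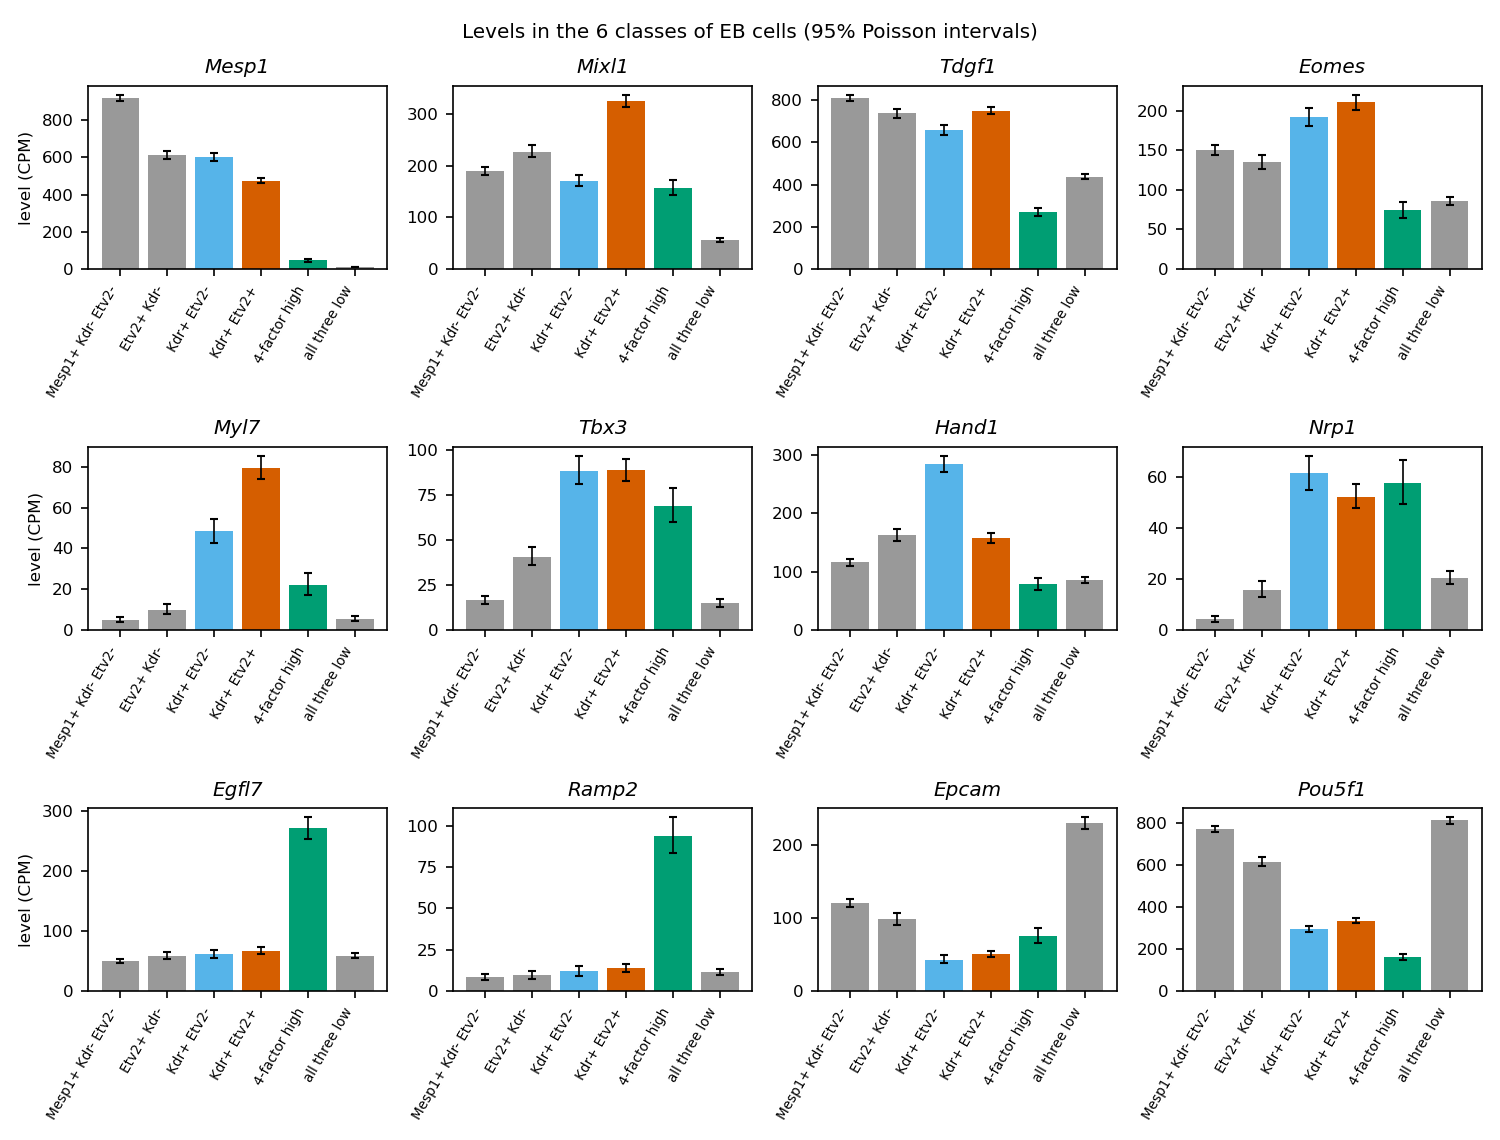
Levels of 12 genes in the 6 classes of EB cells, as CPM over the summed UMIs of a class with 95% Poisson intervals; each panel has its own axis from 0. Orange bars are the 273 Kdr+ Etv2+ cells: Mixl1 and Myl7 are highest there, Tbx3 is level with the Kdr+ Etv2- cells (blue), Hand1 is highest in the latter, and Egfl7 and Ramp2 stand out in 4-factor-high cells (green).

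Pluripotency and epithelial genes were low. All 12 epiblast genes had a ratio below 1 and 9 of them were at least 2-fold lower, against 1.99% of all genes, with a median log2 ratio of -1.67. Sox2, Utf1, Pou3f1 and Cdh1 entered only through the remaining cells, and of the other 8 genes 5 were 2-fold lower. Nanog stood at 17.0 CPM against 57.2 (3.37-fold lower), the tight junction gene Cldn6 at 11.9 against 63.3 (5.34-fold lower) and the adhesion gene Epcam at 50.6 against 135.5 (2.68-fold lower). Pou5f1, which encodes OCT4, was 1.94-fold lower at 334 CPM and was still seen in 91.2% of the cells. In the list of the epithelial to mesenchymal switch, Cdh1, Epcam, Cldn6 and Cldn7 were at least 2-fold lower of 13 compared and none was that much higher. On the mesenchymal side Fn1, fibronectin, was 1.70-fold higher at 1006 CPM, and Cdh11, Zeb2 and Cdh2 were 1.88, 1.76 and 1.45 times as high. Vim stood at 330.5 CPM against 414.

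Other lineages gave few signals. In the definitive endoderm list Sox17 (5.02 CPM against 28.9), Cer1 (0.855 against 10.7) and Trh (41.9 against 204) were lower. Trh was lower still in Kdr+ Etv2- cells, at 18.1 CPM. The chemokine receptor Cxcr4 was 2.00-fold higher at 15.2 CPM, and it stood at 20.8 CPM in Kdr+ Etv2- cells. Sox17 and Cer1 entered only through the remaining cells and Cxcr4 only through the Kdr+ Etv2+ cells. Of the 3 genes at the minimum level in both classes 1 was lower and none higher. Of 3 paraxial mesoderm genes compared, Tcf15 and Cdx2 were lower, by 2.71-fold and 3.42-fold. Tcf15 entered only through the remaining cells, and by the second count 1 of 2 genes was lower. Zfp42, Klf2 and Klf5 of the naive pluripotency list were lower, and Tbx3, which that list shares with the cardiac list, was higher. Zfp42 and Klf2 entered only through the remaining cells, and by the second count 1 of 3 genes was lower and 1 higher. Over all genes that count gave 0.840% lower and 0.460% higher. The lowest ratios among genes over 50 CPM were those of Lefty1, a Nodal inhibitor (10.8 CPM against 65.1, 6.03-fold lower), Cldn6 and Trh, followed by Nefl, Sfn, Igfbp3, Mt2, Cldn7 and Mt1, 3.76-fold or more lower.

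Cell cycle genes were level. None of 12 S phase genes and none of 12 mitosis genes differed by 2-fold, and the medians were -0.09 and 0.08 on the log2 scale. Of 13 glycolysis genes compared the only one past 2-fold was Slc2a3, a glucose transporter, which was 2.59-fold lower (55.3 CPM against 143). WNT and Notch genes had no difference of 2-fold in either direction (9 and 6 compared), and of 8 FGF genes Fgf5, an epiblast gene, was lower. Over all genes 0.813% were higher and 1.99% lower, so a count of 0 in lists this short says little about them.

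**Figure D2:**
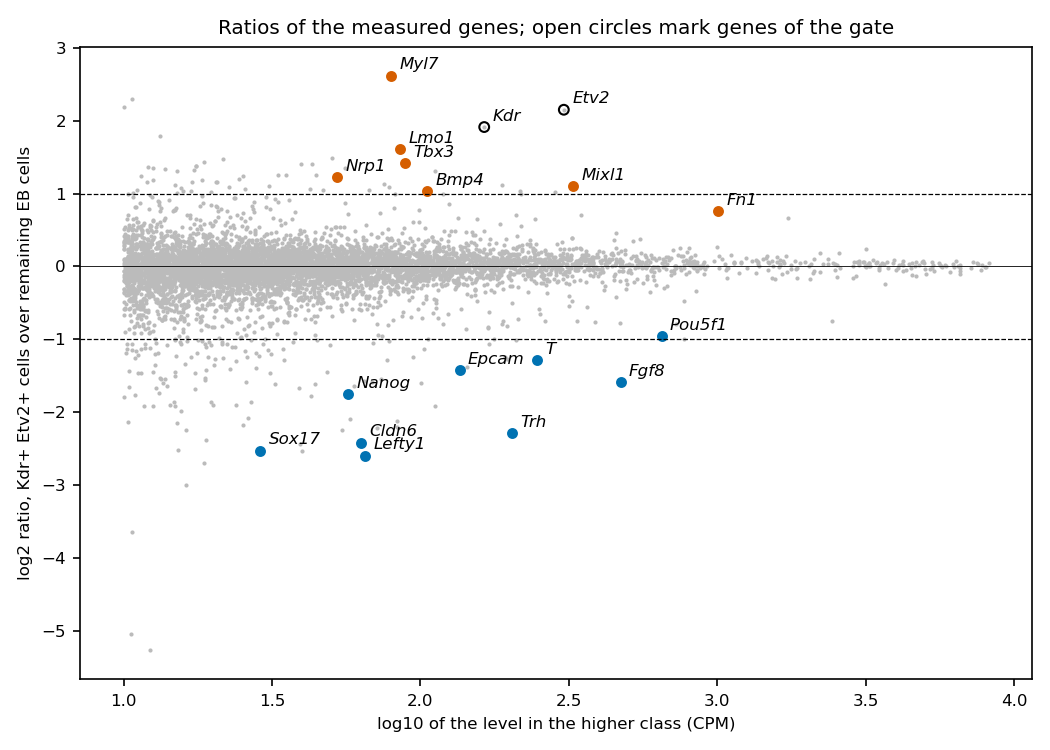
Each point is 1 of the 6889 genes compared; the x axis is log10 of the level (CPM) in the higher class and the y axis the log2 ratio of Kdr+ Etv2+ cells over remaining EB cells, with dashed lines at 2-fold. Most points lie near 0; Myl7 is the highest gene outside the rule (open circles, Kdr and Etv2), and Lefty1, Cldn6, Sox17 and Trh are among the lowest.

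The nearest class was the Kdr+ Etv2- cells, and few genes told them apart. Of 6830 genes compared, 15 were at least 2-fold higher in Kdr+ Etv2+ cells (0.22%), with Etv2 itself among them, and 15 at least 2-fold lower (0.22%). Over genes at the minimum level in both classes the numbers were 5 and 4. A further rule asked for at least 1 UMI of Kdr and of Etv2 after thinning, with the 4-factor sum and levels from full counts. By it the numbers were 11 and 27. Of the 15 lower genes 4 were among the 27, so most of the lower calls did not recur under that rule. Kdr was at 164 and 163 CPM. None of 8 epiblast genes and none of 2 endothelial markers was past 2-fold in either direction. With 0.22% of all genes called each way, a count of 0 in lists this short says little about them.

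What was higher with Etv2 included Lmo2 and Tal1, genes of the rule that were limited only from above (56.9 CPM against 21.7, and 16.8 against 4.17). Mixl1 was 1.91-fold higher (326 CPM against 171, ratio interval 1.77 to 2.06). Phlda1 was 1.83-fold higher (99.2 against 54.3), Myl7 1.64-fold, and the co-receptor Nrp2, which binds VEGF ligands and semaphorins, 1.64-fold (81.3 against 49.6). Dusp6, a phosphatase induced by and acting on ERK signaling, was 1.53-fold higher (58.8 against 38.4). Dusp6 was not higher than in all remaining EB cells (63.9 CPM), and Mesp1+ cells held 74.7 CPM. Dusp2, another such phosphatase, was 3.21-fold higher at 33.1 against 10.3, and Ebf1, a helix-loop-helix factor, 5.26-fold at 11.4 against 2.17. Fos, an immediate early gene, was 2.32-fold higher (18.1 against 7.79). Trh, which was low against all remaining EB cells, was also past 2-fold higher here (41.9 CPM against 18.1). Tal1, Ebf1 and Fos were under 10 CPM in the Kdr+ Etv2- cells and entered only through the Kdr+ Etv2+ cells.

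Some genes of the allantois and extraembryonic mesoderm list were lower in the Kdr+ Etv2+ cells than in the Kdr+ Etv2- cells. Foxf1, a forkhead factor needed in extraembryonic and lateral plate mesoderm, stood at 21.5 CPM against 52.2 in Kdr+ Etv2- cells (2.43-fold lower, 2.02 to 2.92). Hand1 stood at 157 against 284 (1.81-fold lower, 1.68 to 1.94). The allantois and extraembryonic list had 5 genes compared, all with a ratio below 1, of which Foxf1 and Tbx2 were past 2-fold, Tbx2 entering only through the Kdr+ Etv2- cells, and Bmp4 stood at 105.0 against 120.4 CPM. Its median log2 ratio was -0.85, where that of all genes was -0.03. Spin2c, Pdlim4, Igf2, Slc2a1, Nkd1 and Asb4 completed the genes of largest ratio, 1.48 to 2.43 times as low.

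Median depth differed here too, 31336 UMIs against 24486.5, and the Kdr+ Etv2- class was cut by a UMI count. A shallow cell that holds Etv2 RNA can fall into it, and 45.8% of its cells had exactly 1 Etv2 UMI. Its Etv2 level was 17.6 CPM, against 9.80 in Mesp1+ cells that also had at most 1 Etv2 UMI.

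The 4-factor-high cells differed far more. Of 6953 genes, 97 (1.40%) were at least 2-fold higher in Kdr+ Etv2+ cells and 179 (2.57%) at least 2-fold lower, or 43 and 54 over genes at the minimum level in both classes. The lower genes were in part set by the limit on the 4 factors. Streak and nascent mesoderm genes were the higher group: 8 of 13 compared were past 2-fold and none was lower, with a median log2 ratio of 1.48, or 7 of the 12 at the minimum level in both classes. Mesp1 was 10.1-fold higher (8.56 to 12; 475 CPM against 47.0), Sp5, a WNT-responsive zinc finger factor, 4.43-fold, Lhx1 3.87-fold, Snai1, which represses Cdh1 as cells leave the epithelium, 3.29-fold, Eomes 2.84-fold, Tdgf1, the Nodal co-receptor Cripto, 2.79-fold and Mixl1 2.08-fold. The ephrin gene Efna3, the Nodal inhibitor Lefty2 and the Notch ligand Dll3 were 4.8, 4.3 and 3.77 times as high. Of the WNT list 5 of 9 genes were higher, among them Fzd7 (4.29-fold), which was under 10 CPM in the 4-factor-high cells. By the second count 3 of 7 were higher, Wnt5a among them (2.88-fold).

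Endothelial genes were the lower group. Of 8 compared, 6 were under 10 CPM in the Kdr+ Etv2+ cells and entered through the 4-factor-high cells, and the other 2, Ramp2 and Egfl7, were both past 2-fold. Ramp2, a receptor partner needed for vessel integrity, stood at 13.7 CPM against 94 (6.87-fold lower) and Egfl7, a secreted endothelial factor, at 67.4 against 271 (4.02-fold lower). Of hemangiogenic factors outside the rule, 4 reached the minimum level in both classes, and Hhex (14.2 CPM against 102, 7.18-fold) and Ets1 (2.41-fold) were lower. Ets2, Elk3 and Sox7 entered only through the 4-factor-high cells. Ebf1, Phlda1 and the stress gene Gadd45g were 5.49, 3.78 and 9.12 times as low. For Ebf1 and Phlda1 the Kdr+ Etv2+ cells thus lay between the Kdr+ Etv2- and the 4-factor-high cells, while Runx1, the factor of blood emergence, was low in all 3, at 12.3 CPM in Kdr+ Etv2- cells, 10.4 in Kdr+ Etv2+ cells and 19.0 in 4-factor-high cells.

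Against Etv2+ Kdr- cells 60 of 6802 genes (0.882%) were at least 2-fold higher and 68 (1.00%) lower, and against Mesp1+ cells 127 of 6903 (1.84%) were higher and 156 (2.26%) lower. Myl7 was 7.99-fold and 16.0-fold higher than in these classes, Nrp1 3.31-fold and 12.1-fold, and Tbx3 2.18-fold and 5.33-fold. Fgf8 was 2.96-fold and 4.38-fold lower, T 2.30-fold and 3.62-fold, and Epcam 1.95-fold and 2.39-fold. Mixl1 was 1.43-fold and 1.71-fold higher. For Myl7, Nrp1, Tbx3, Fgf8, T and Epcam the Etv2+ Kdr- cells thus stood between the Mesp1+ cells and the Kdr+ Etv2+ cells.

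To see how the 273 cells vary among themselves, all EB cells were clustered on the other genes, with the 6 genes of the rule left out, and 11 Leiden clusters were obtained. The Kdr+ Etv2+ cells did not form 1 cluster of their own. Cluster 1 held 132 of them, 48.4%, and they made up 57.4% of its 230 cells. Its leading genes outside the rule were Lmo1, Dkk1, Tbx3, Myl7 and Mixl1. Another 47 were in cluster 0 (led by Mesp1, Lhx1 and Lefty2), 38 in cluster 3 (Mest, Hand1, Bmp4 and Krt18) and 34 in cluster 2 (Lgals3, Tmsb4x and Gbp2). Clusters 4, 8, 10, 7 and 9 held 10, 5, 5, 1 and 1, and clusters 5 and 6, led by Fst, Pim2 and Fgf5 and by Sfn, Nefl and Tagln, held none in 157 and 128 cells, which allows shares of up to 1.91% and 2.34% (3 cells). Among the nearest neighbours of the Kdr+ Etv2+ cells in this clustering, 50.7% were Kdr+ Etv2+ themselves, where such cells are 14.5% of EB cells. Another 18.4% were Kdr+ Etv2- cells, which are 11.3% of EB cells.

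The Kdr+ Etv2+ cells of these clusters had different partners for the same 2 markers. Mesp1 stood at 1025 CPM in those of cluster 0, 563 in cluster 2, 411 in cluster 1 and 24.1 in cluster 3. Hand1 ran the other way, at 382 CPM in cluster 3 and 95.1 to 122 in the other 3, and so did Bmp4, at 239 CPM in cluster 3 and 12.1 in cluster 0. Mixl1 was highest in cluster 1 (434 CPM) and lowest in cluster 3 (209). The cells of cluster 3 also had Mest and the keratin gene Krt18 6.60 and 4.67 times as high as the other Kdr+ Etv2+ cells, and Foxf1 4.17 times. Cells of cluster 0 had Mesp2, Otx2 and Dll3 5.74, 3.75 and 3.03 times as high. The clusters were made from the levels of genes outside the rule, so differences of this kind between them follow in part from the clustering. As a description, Kdr and Etv2 were found together in Mesp1-high, Hand1-low cells and in Mesp1-low, Hand1-high cells of the same library.

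The 34 cells in cluster 2 had a median of 46990.5 UMIs, the deepest of the 4 groups. They had Lgals3, Sfn, Acta1 and Psmb8 58.3, 7.48, 7.42 and 5.45 times as high as the other Kdr+ Etv2+ cells. Whether some of these deep barcodes hold 2 cells was not tested.

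Within the clusters most contrasts with the remaining cells became small. When the remaining cells were weighted to the same spread over clusters, 2 genes in place of 56 were at least 2-fold higher and 7 in place of 137 lower. The 2 were Myl7 (log2 ratio 1.92 in place of 2.62) and Plet1 (1.02), while Utf1 was under 10 CPM in both weighted classes and was not compared, and among the 7 were Sox17 (-1.66), Col1a1 (-1.35) and Gbp2 (-1.13). Plet1, Col1a1 and Gbp2 were picked out after their values were seen. Mixl1 kept a log2 ratio of 0.45. Myl7 was higher in the Kdr+ Etv2+ cells than in the others in each of the 4 clusters: 76.0 CPM against 26.6 in cluster 0, 100.4 against 23.8 in cluster 1, 20.3 against 3.42 in cluster 2 and 91.9 against 32.9 in cluster 3. The clusters were made from the same cells and on these genes, so these values describe the composition and are no test.

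**Figure D3:**
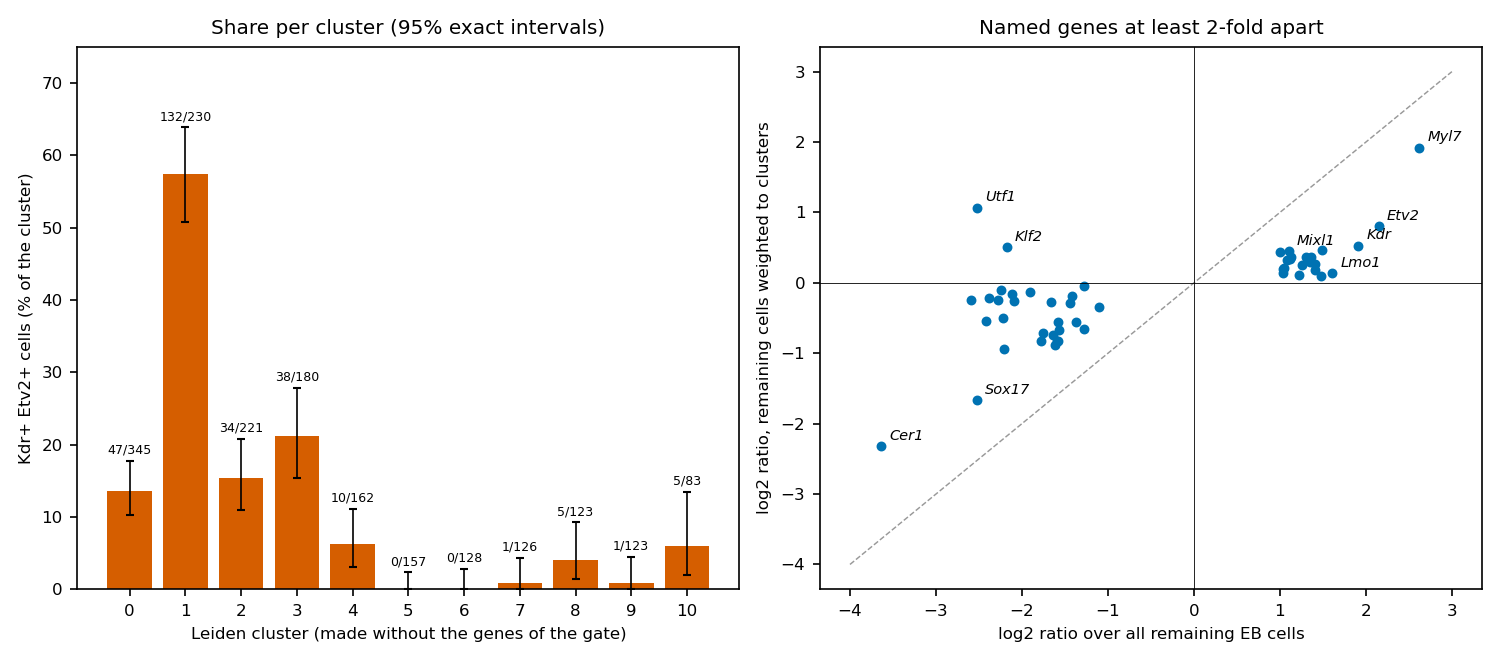
Left, the share of Kdr+ Etv2+ cells (%) in each of 11 Leiden clusters made without the genes of the rule, with 95% exact intervals and the cell numbers above the bars; cluster 1 stands highest at 57.4%. Right, log2 ratios of the named genes at least 2-fold apart, over all remaining cells (x) and over remaining cells weighted to the same clusters (y); nearly all lie closer to 0 on the y axis, Myl7 stays at 1.92, and Utf1 and Klf2 change sign.

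Splitting the 273 cells into 3 groups of 91 by Etv2 level (30.7 to 115, 116 to 294 and 297 to 2238 CPM) showed which genes went with it. Depth ran slightly the other way, with median UMIs of 32989, 32446 and 29673. Mixl1 stood at 222, 318 and 462 CPM from the low to the high group. Dusp6 stood at 39.3, 48.8 and 93.7, Dusp2 at 13.8, 24.4 and 66.5, and Nrp2 at 56.3, 79.3 and 114. Phlda1 (69.5, 99.6 and 135), Junb, an AP-1 factor (30.8, 38.1 and 61.8), and Bmp2 (12.6, 20.9 and 33.6) had the same order, as had Lmo2 and Tal1 of the rule. These genes were named in part for going with Etv2, so their order is a description.

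Other genes stood lowest in the high group. Hand1 stood at 177, 181 and 107 CPM, Bmp4 at 119, 125 and 65.8, and Foxf1 at 28.1, 20.9 and 13.9. Mesp1 was at 541, 477 and 391, and Trh at 57.5, 46.3 and 17.9. Myl7 had no order, at 75.9, 58.7 and 107. Across the 273 cells the Spearman correlation with Etv2 level was highest for Dusp2 (0.35) and Mixl1 (0.35) among 6439 genes, whose median was -0.03. These points share a library and sparse counts, Etv2 level itself had a correlation of -0.23 with depth, and correlations of this size are no finding.

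Splitting by the 4-factor sum gave another set. The 97 cells with a sum of 0 had median UMIs of 28473, the 88 others of lower sum (15.4 to 92.7 CPM) 36997 and the 88 of higher sum (94.8 to 393 CPM) 30830. A sum of 0 in a shallow cell can also be a missed transcript. Mesp1 stood at 653, 506 and 253 CPM in this order, Dll3 at 113, 78.3 and 40.9, Tdgf1 at 885, 750 and 612, and Foxf1 at 33.4, 22.9 and 7.63. Phlda1 stood at 47.0, 62.4 and 198, Id3 at 423, 486 and 659, Hhex at 6.47, 11.6 and 25.3, and Etv2 at 175, 251 and 501. The sum and Etv2 are both values of the rule, so this split describes the class and tests nothing. Myl7 did not follow the 4 factors, at 79.7, 77.7 and 81.5 CPM, and of the 124 cells with Myl7 57.3% also held Lmo2, against 55% of the 149 without it.

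**Figure D4:**
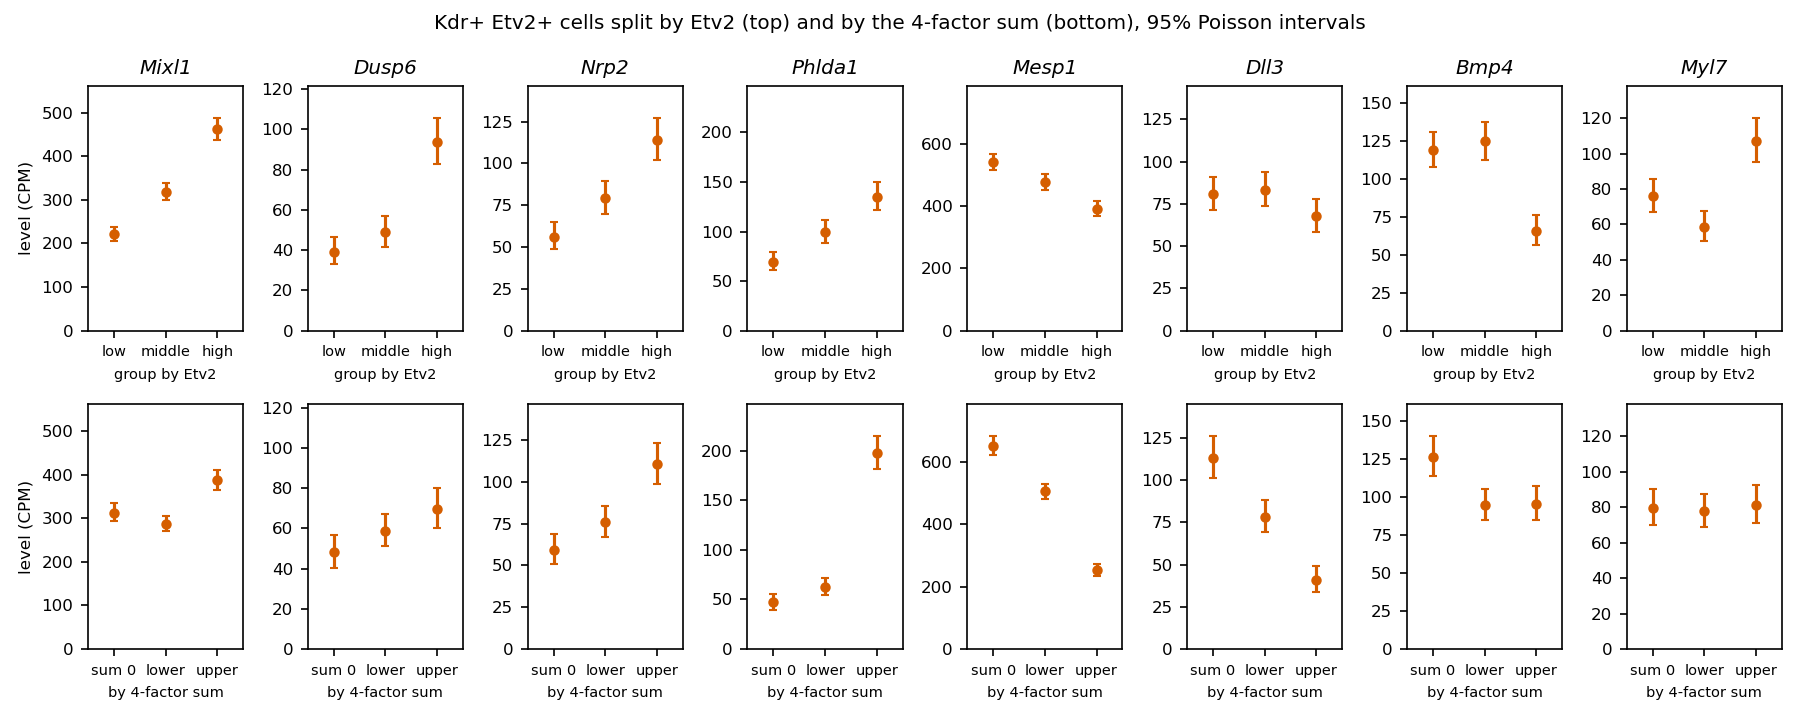
Levels (CPM, 95% Poisson intervals) of 8 genes within the 273 Kdr+ Etv2+ cells, in 3 groups of 91 by Etv2 level (top) and in cells with a 4-factor sum of 0 and 88 each of lower and upper sum (bottom); the axis of a gene is the same in both rows. Mixl1 and Dusp6 stand highest in the high Etv2 group, Mesp1 and Dll3 are lowest at the upper 4-factor sum, and Myl7 is level in the bottom row.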

How the data were processed

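The deposited values are UMI counts per gene and barcode, made by the authors against mm10, per the submitters' processing notes; for the aligner, counting program and annotation nothing was given in the sources used here. Each table lists 33456 genes and 737280 barcodes. Barcodes were kept as cells from 6172 UMIs in EB and 6537 in YS (10% of the 99th percentile among the top 3000 barcodes) up to 10% of UMIs from mitochondrial genes. The libraries shared 2 cell barcodes (0.258% of YS cells). UMIs were summed over each class and scaled to CPM. Levels have exact Poisson intervals, ratios conditional binomial ones, and a count of 0 is bounded by 3 counts. All cover counting error alone, and the calculation was tested on simulated data. EB cells were clustered with scanpy 1.11.5 and leidenalg 0.10.2 (2000 variable genes, 30 components, 15 neighbours, resolution 1, seed 1). Coordinates are from GENCODE M21 (GRCm38), the mm10 build. Thinning drew 6000 UMIs from every cell, and no cell was shallower.

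The members, the 20 gene lists and the tests were chosen with earlier results of these data known. Named genes were those of the rule, the 15 of largest ratio in each direction against remaining cells and 8 against each of the 2 nearest classes (at least 50 CPM), up to 3 highest and 2 lowest of each list with any list gene over 50 CPM, and the 8 most and least correlated with Etv2. Other genes named were picked after their values were seen. A marker of the blood cell list is not reported here.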

Additional observations from a re-analysis of the deposited data

How the results depend on the processing

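No paired analysis was possible because there is 1 EB library and no replicate, so nothing could be left out in turn. The number of Kdr+ Etv2+ cells followed the limits: 462 with at least 1 UMI of Kdr and of Etv2, and 178 with at least 3. It was 223 with a 4-factor sum below 200 CPM and 320 below 800. With at least 1 UMI of Kdr and of Etv2 after thinning it was 174. In that thinned setting the 4-factor sum and the levels compared still came from the full counts. Against the remaining cells, 2 genes were higher and 7 lower after weighting to Leiden clusters, and 1302 and 1441 without a minimum level. Against Kdr+ Etv2- cells the lower genes numbered 24 with at least 3 UMIs, 27 after thinning and 26 with the mean of per-cell CPM, and without a minimum level 461 were higher and 775 lower. Of the 15 lower genes, 4 were among the 27 found after thinning. Against 4-factor-high cells the counts were 303 and 290 with the limit at 800 CPM, and 650 and 1552 without a minimum level. After weighting to Leiden clusters Klf2 and Utf1 turned to log2 ratios of 0.51 and 1.07 (both under 10 CPM in either class there, so not among the genes compared). The naive pluripotency median was 0.18 there and -1.10 at first, but each was taken over the genes compared in its setting. Klf2 was left out of the later median, so the 2 values cover different genes and show no reversal of the list. With the limit at 800 CPM the log2 ratio of Fli1 over the remaining cells turned to 0.0117 from -1.61. Of the 50 named genes at least 2-fold apart, 46 were under 2-fold after weighting to clusters and at most 4 under any other setting. Of the counts recomputed 60 stayed within a set limit around their first value and 24 did not. For counts of genes the limit was 1.5 times the first value. For the number of Kdr+ Etv2+ cells it was the exact Clopper-Pearson interval of their share, and 223 and 320 cells fell outside it. Without the deepest barcodes 70 genes were higher and 165 lower, and Myl7 had a log2 ratio of 2.68. With the minimum level required in both classes, a setting chosen after seeing the data, 29 genes were higher and 53 lower than in the remaining cells, 5 and 4 than in Kdr+ Etv2- cells, and 43 and 54 than in 4-factor-high cells. Fewer genes are compared there by construction. The cause of the other shifts was not tested.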
